A study of Mus musculus with 8 samples.

Results

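The multiciliated cell program is the set of genes with which an airway cell multiplies its centrioles and builds beating cilia. It was followed here through 48 listed gene names, which stand for 46 genes because Dnai1 and Dnai2 are other names of Dnaic1 and Dnaic2. Of these, 45 had an array probe set annotated with that gene alone, among 22180 genes measured in the same way. The remaining gene, Ccdc39, shared its probe set with Ttc14 and was not analysed on its own. The rule takes the genes by name, but the list was drawn up with earlier results of these arrays known. Where a gene had several probe sets, the one with the highest mean over the 8 arrays was used, which concerned 7 of the 45 genes.

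Log2 expression was read on 8 arrays, each of the lungs of 1 mouse embryo collected at embryonic day 14.5, on a mixed C57BL/6 x 129S6 background. The 4 mutant embryos were Shh-cre:Ezh2-flox/flox, in which Cre made from the Shh gene acts on the floxed gene of the histone methyltransferase Ezh2 in the lung epithelium. The 4 control embryos were Shh-cre, so Cre was present in both groups. Controls 1 and 2, controls 3 and 4, mutants 1 and 2, and mutants 3 and 4 were littermates (litters 1 to 4 in that order), and no litter held both genotypes. Ezh2 itself read 11.84, 11.93, 11.83 and 11.89 in controls and 11.80, 11.80, 11.75 and 11.77 in mutants, lower in every mutant but by only −0.09 ± 0.05 (SE), which did not pass (adjusted p = 0.652 by limma). Whether its probes lie in the floxed part is not given in the sources used here. Mesenchyme, vessels and other cells without Cre were part of each sample, and in such a mixture fewer cells of a type and less RNA per cell cannot be told apart.

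In the airway, multiciliated cells arise late in gestation from epithelial progenitors in which Notch signalling is low. The coiled-coil proteins Gmnc and Mcidas start the program with E2F factors, Ccno and Deup1 serve the mass production of centrioles, and Foxj1 with RFX factors switches on the genes of the beating axoneme. That axoneme carries dynein arms as motors, with radial spokes and a central pair of microtubules to control them. Ezh2 belongs to Polycomb repressive complex PRC2, which holds many developmental genes silent, and the comparison asks whether this program differs in lungs whose epithelium was meant to lack it.

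No gene of the program passed the test in either direction. The count was 0 of 45 by limma with Benjamini-Hochberg adjustment over the 22180 genes at an adjusted p of 0.05, a threshold that 0.852% of all genes passed. The smallest adjusted p among the 45 was 0.213. An unadjusted p under 0.05 was found for 5 genes, or 11.1%, against 9.87% of all genes. For each of the 45 genes the 95% interval of the change lay inside a 1.5-fold difference in either direction, with bounds between −0.44 and 0.55 on the log2 scale. These intervals describe the array scale, on which changes of dim probe sets are drawn towards 0, and the mixed tissue, in which a change limited to the epithelium is diluted.

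**Figure D1:**
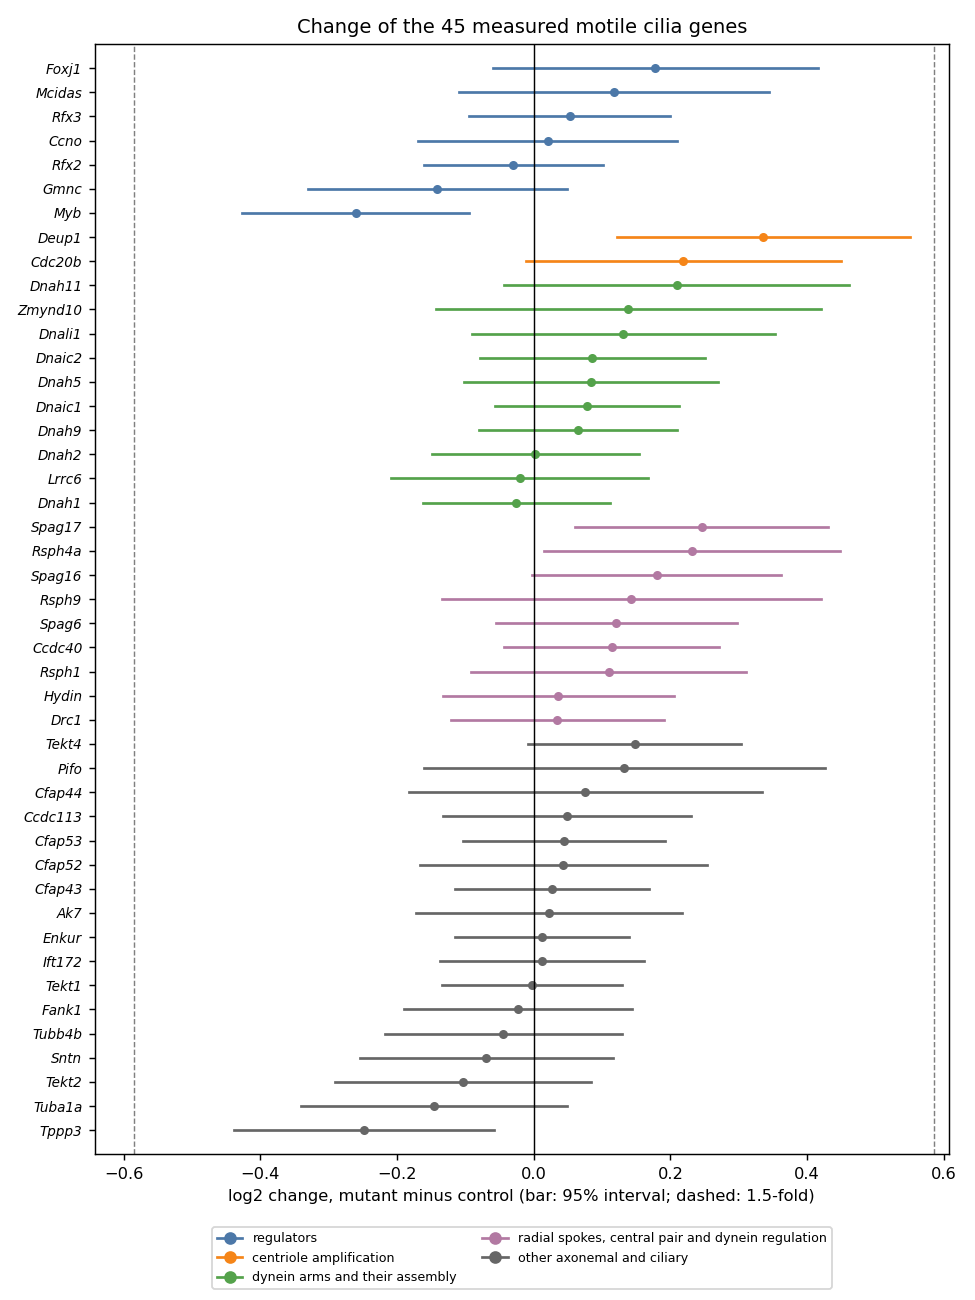
Log2 change, mutant minus control, of the 45 measured genes, ordered by role; points are the estimates of the limma fit, bars their 95% intervals (n = 4 embryos per group), and dashed lines mark a 1.5-fold difference. All bars lie between the dashed lines, and the estimates run from −0.26 (Myb) to 0.34 (Deup1).

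The estimates leaned to the higher side without single genes passing. The log2 change was positive in 33 of 45 genes, or 73.3%, against 52.9% of all genes, and its median was 0.05 against 0.01 over all genes. The lean differed by role. All 9 genes of radial spokes, central pair and dynein regulation had positive changes, with a median of 0.12 and a range of 0.03 to 0.25. Of 10 dynein arm genes 8 were positive, with a median of 0.08. The 2 centriole genes had a median of 0.28, while the 7 regulators and the 17 other axonemal genes had medians of 0.02 and 0.01. Over all 45 genes the lean was smaller without mutant 3, with a median of 0.02 and 25 genes positive, and without its whole litter the median was −0.0047 with 21 positive. The roles differed in this. Without mutant 3 the medians were 0.14 for spokes, central pair and dynein regulation, 0.21 for the centriole genes and 0.03 for dynein arms, and without its litter they were 0.12, 0.25 and 0.02. These differences between roles were not tested.

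Most of the program sat in the dim part of the arrays. The mean log2 value of a member over the 8 embryos ran from 4.35 to 10.96, and 37 of 45 lay below the median of all gene means, 7.56. Those below the lower quartile of 6.10 numbered 12, and 3 lay above the upper quartile of 9.28. Probe sets differ in how strongly they bind, so these values place a probe set on the array and do not rank transcripts. The table used here carries no detection calls, so dim is all that can be said of such genes.

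**Figure D2:**
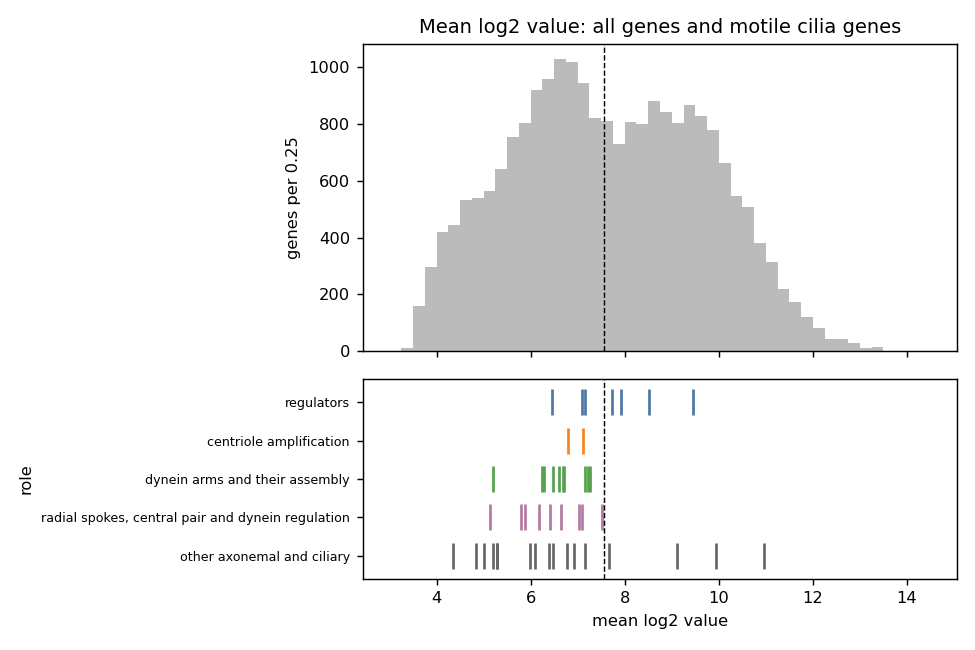
Upper panel, the number of all 22180 genes by mean log2 value over the 8 embryos in steps of 0.25; lower panel, the mean of each of the 45 motile cilia genes as a tick, by role. The dashed line marks the median of all genes, 7.56, and all genes of dynein arms and of spokes, central pair and dynein regulation lie to its left.

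The RFX factors named among the regulators bind the X-box, a site built from inverted half-sites, and promoters of ciliary genes are known for it. The promoter windows of RefSeq (GRCm38.p6), which run from 250 bases before to 50 bases after a start, held 39 of the 45 genes in 45 windows. The half-site GTTGCC, searched on both strands, was in 22 of these 45 windows, or 48.9%, and in 12.5% of the 32851 windows of all genes. The forkhead core TGTTTAC, a sequence type bound by Foxj1 relatives, was in 4 windows (8.89%, against 3.65%). The MYB core CAACNG was in 32 windows (71.1%, against 35.0%). Windows of the program had a median GC content of 56%, against 52.7% in all windows, and a median ratio of observed to expected CpG of 0.65, against 0.38. The reverse complement of the half-site, GGCAAC, ends in the letters CAAC with which the MYB core begins, so a match of both can share letters. Matches describe letters, not bound sites. Longer X-box strings were tried too and are not reported.

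The half-site was found for 21 of the 39 genes with a window, and 10 of these sites, picked from all 5 roles, are shown so that its surroundings can be compared. Each stretch is 24 bases of GRCm38.p6 read 5′ to 3′ in the direction of the half-site, which is in capitals, and the strand is that of the printed letters.
Mcidas, chr13:112993669-112993692, plus strand: ccagGTTGCCaggttggttaacgc
Ccno, chr13:112987579-112987602, plus strand: tgcgGTTGCCacggtgacgacaga
Rfx2, chr17:56831105-56831128, minus strand: aaccGTTGCCgggcgcaacgcccc
Deup1, chr9:15627916-15627939, plus strand: gtggGTTGCCatggagacgcggcc
Dnaic2, chr11:114727379-114727402, minus strand: accaGTTGCCtagcaaccctggcc
Zmynd10, chr9:107547329-107547352, minus strand: ggcaGTTGCCaagccgttgaagcg
Spag16, chr1:69826863-69826886, plus strand: acgcGTTGCCgtagtaactgcgga
Hydin, chr8:110266950-110266973, minus strand: atctGTTGCCacagcaaccgcaga
Tekt1, chr11:72361878-72361901, minus strand: tccgGTTGCCatagagaccgcagt
Pifo, chr3:106001500-106001523, plus strand: ctacGTTGCCaagggaacggaacc
In 5 of the 10, the letters aac of the opposite half-site follow within 10 bases. The centre of the half-site lay before the start in 9 of the 10 and within 100 bases of it in 7. The searched window holds 250 bases before the start and 50 after it, so most places in it lie before the start. Neither these positions nor the letters aac were compared with the sites of other windows, so they show no preference. It lay 9 bases before the start in Pifo, 10 in Hydin, 12 in Tekt1 and 23 in Dnaic2, and 192 and 216 bases before it in Mcidas and Ccno. By role, the half-site was found for 4 of 6 regulators with a window, 1 of 2 centriole genes, 2 of 9 dynein arm genes, 4 of 7 genes of spokes, central pair and dynein regulation, and 10 of 15 others. Genes with the half-site had a median log2 change of 0.05 (21 genes, −0.10 to 0.34) and genes without it 0.05 (18 genes, −0.26 to 0.25).

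The regulators at the top of the program showed no common direction. Gmnc, which starts the program, had log2 values of 7.10, 7.28, 7.22 and 7.26 in controls 1 to 4 and of 7.06, 6.87, 7.23 and 7.15 in mutants 1 to 4. The groups overlapped, and mutant 2 was lowest. The estimate was −0.14 ± 0.09 (SE; adjusted p = 0.656 by limma).

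Mcidas, which acts after Gmnc, read 7.73, 7.59, 7.60 and 7.74 in controls and 7.58, 7.68, 8.07 and 7.80 in mutants. The mutants straddled the controls, with mutant 3 above all other embryos and mutant 1 below them. The log2 change of 0.12 ± 0.10 (SE) did not pass (adjusted p = 0.786 by limma). Ccno, a cyclin-like protein needed for centriole production, read 6.44, 6.26, 6.59 and 6.49 in controls and 6.39, 6.55, 6.56 and 6.37 in mutants. All 4 mutants lay inside the range of the controls, and the log2 change was 0.02 ± 0.09 (SE).

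Foxj1, the regulator of motile cilium assembly, read 7.07, 6.87, 6.98 and 7.10 in controls and 7.10, 7.13, 7.47 and 7.02 in mutants. Mutant 3 stood above the rest, and the other 3 spanned 7.02 to 7.13 and overlapped the controls. The group means were 7.0 ± 0.10 (SD, n = 4) and 7.18 ± 0.20 (SD, n = 4), and the log2 change of 0.18 had a 95% interval of −0.06 to 0.42 and an adjusted p of 0.656 by limma. In the 23 alternative fits the change stayed between 0.08 and 0.25.

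Rfx2 and Rfx3, the RFX factors in the list, varied little. Rfx2 read 7.91, 7.87, 8.02 and 7.93 in controls and 7.88, 7.92, 7.85 and 7.95 in mutants. Rfx3 read 9.39, 9.48, 9.38 and 9.48 in controls and 9.55, 9.45, 9.56 and 9.38 in mutants. Both sets of groups overlapped, with log2 changes of −0.03 ± 0.06 (SE) and 0.05 ± 0.07 (SE) and intervals of −0.16 to 0.10 and −0.09 to 0.20.

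Myb, a transcription factor of dividing progenitors that also serves the early multiciliated program, was the only regulator whose groups did not overlap. It read 8.64, 8.60, 8.67 and 8.71 in controls and 8.42, 8.40, 8.23 and 8.53 in mutants. Every mutant lay below every control, with mutant 3 lowest. Its estimate was −0.26 ± 0.08 (SE; 95% interval −0.43 to −0.09; adjusted p = 0.213 by limma). A two-sided exact permutation test over embryos, which ignores litters, gave p = 0.0286, and no division of 4 and 4 embryos gives less. Every gene without overlap gets this value, so it adds nothing to the absence of overlap. The second probe set of Myb gave −0.04. With the Xist level as a covariate the change of −0.29 passed at an adjusted p of 0.0217 by limma. This was the lowest over the 23 alternatives, and the highest was 0.538. The fit with this covariate called 313 of all 22180 genes lower, against 55 in the main fit. Xist was low in mutant 3 and in litter 1 (6.37 to 6.74) and high in the other embryos (12.6 or more), so this covariate stands for sex and, among controls, also for litter.

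Myb is also a gene of blood progenitors, whose markers were counted beside it. Of 9 measured markers of blood and haematopoietic progenitors, 1 was called higher, Runx1, at 0.52 ± 0.08 (SE; adjusted p = 0.0122 by limma), and 0 were called lower. All 9 had positive changes, with a median of 0.06, and the mean log2 level of the list was 8.37 to 8.45 over controls and 8.47 to 8.58 over mutants. Kit and Ptprc had log2 changes of 0.02 and 0.08. Of 5 measured proliferation genes none was called, and their median change was −0.05. The part of either cell state in the Myb values was not tested.

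**Figure D3:**
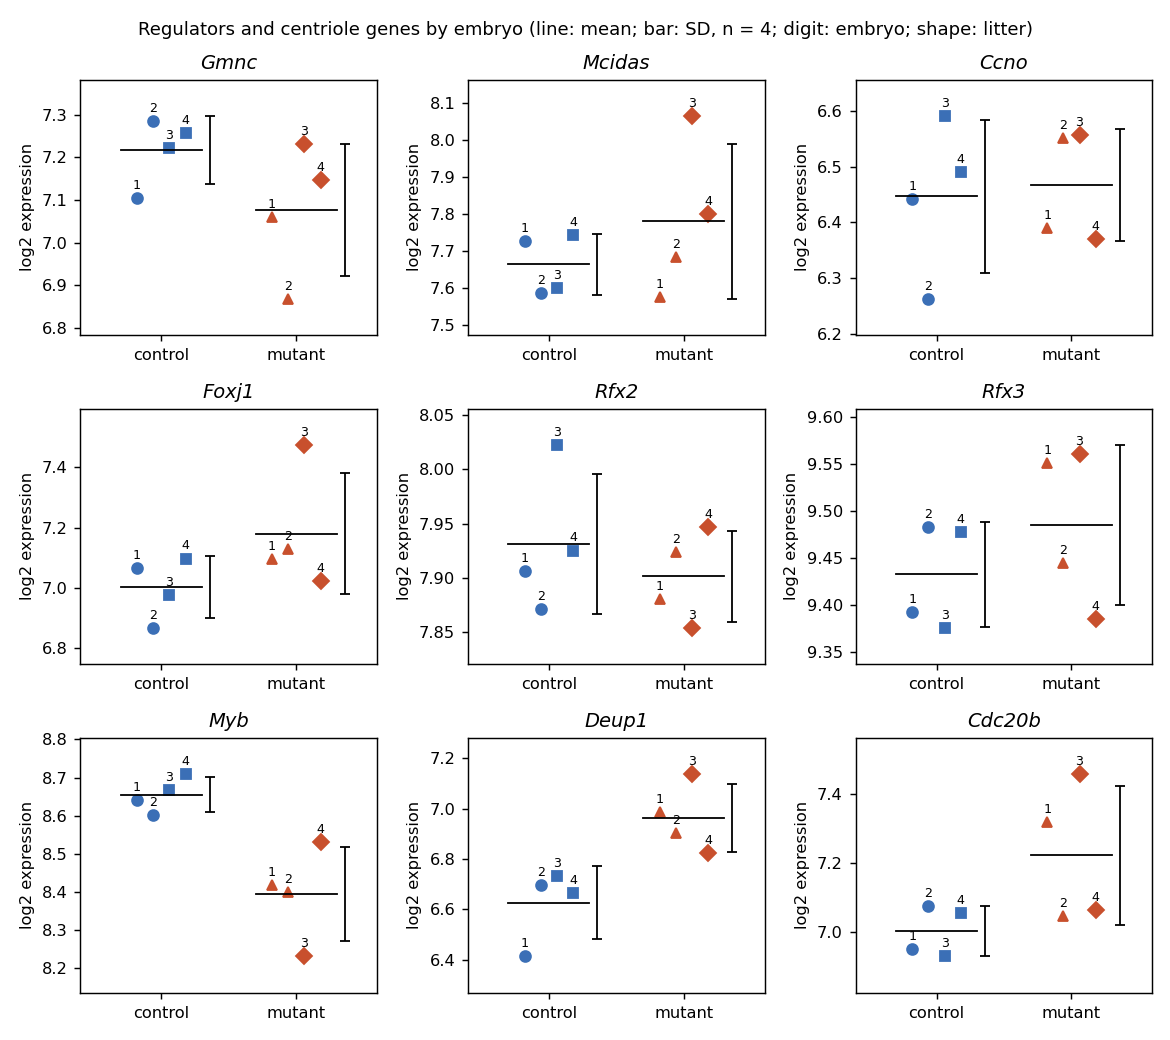
Log2 expression of the 7 regulators and of the centriole genes Deup1 and Cdc20b in each embryo; digits number the embryos, marker shapes show litters, horizontal lines are group means and bars the SD (n = 4), and each panel has its own axis. The groups do not overlap for Myb (mutants lower) and Deup1 (mutants higher), and mutant 3 is the highest embryo for Foxj1, Mcidas, Rfx3, Deup1 and Cdc20b.

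Groups without overlap were found for 3 of the 45 genes, or 6.67%, against 8.07% of all genes. Deup1 and Spag17 were higher in mutants, a pattern of 4.48% of all genes, and Myb was lower, a pattern of 3.6%. The share among members was thus near that of the arrays as a whole.

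Deup1 builds the deuterosome, the platform on which multiciliated cells make many centrioles at a time, and it had the largest positive change of the 45 genes. It read 6.41, 6.70, 6.73 and 6.66 in controls and 6.99, 6.90, 7.14 and 6.82 in mutants. Every mutant lay above every control, and control 1 was lowest. The estimate was 0.34 ± 0.10 (SE, 95% interval 0.12 to 0.55, adjusted p = 0.213 by limma). The exact permutation p of 0.0286, which ignores litters, is that of every gene without overlap and adds nothing to it. Over the alternatives the change stayed between 0.26 and 0.41 and its adjusted p between 0.0681 and 0.493. Cdc20b, its companion at the deuterosome, read 6.95, 7.08, 6.93 and 7.05 in controls and 7.32, 7.05, 7.46 and 7.06 in mutants. Mutants 1 and 3 lay above all controls, and mutants 2 and 4 among them. The log2 change of 0.22 ± 0.10 (SE) did not pass.

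Cdc20b, Mcidas and Ccno are neighbours on chromosome 13 in RefSeq. The microRNA genes Mir449c, Mir449b and Mir449a come directly after Cdc20b in gene order, and whether they lie inside Cdc20b was not examined. MicroRNAs of this family serve multiciliated cells, and the related Mir34a is also a known p53 target. The mature sequences in RefSeq are shown because they share 1 seed, bases 2 to 8, here in capitals.
miR-449a-5p: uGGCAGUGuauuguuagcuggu
miR-449c-5p: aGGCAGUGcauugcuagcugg
miR-34a-5p: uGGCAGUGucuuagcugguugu
miR-34b-5p: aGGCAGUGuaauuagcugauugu
These genes are outside the 45 and were added after their values were seen. None of the 6 measured microRNA genes of the family was called. Mir449c had the largest change, with log2 values of 5.24, 5.15, 4.96 and 5.62 in controls and 5.60, 5.29, 5.83 and 5.49 in mutants, groups that overlapped. The estimate was 0.31 ± 0.16 (SE; adjusted p = 0.585 by limma). Mir449a and Mir449b had 0.03 and 0.12, and Mir34a, Mir34b and Mir34c had 0.16, 0.05 and −0.07. The RNA was copied from a poly(T) primer, and mature microRNAs carry no poly(A) tail, so these probe sets were not read as levels of the mature forms.

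Dynein arms are the motors of the axoneme, and none of their 10 measured genes was called. Log2 changes ran from −0.03 (Dnah1) to 0.21 (Dnah11), and the lowest adjusted p was 0.613 by limma. Among the heavy chains, Dnah5 and Dnah9 of the outer arm had 0.08 and 0.06, and Dnah11, also of the outer arm, had 0.21. Dnah11 read 6.98, 6.97, 7.22 and 7.43 in controls and 7.43, 7.41, 7.45 and 7.15 in mutants. Both embryos of litter 1 lay below all other embryos, and mutant 4 lay within the controls. The intermediate chains Dnaic1 and Dnaic2 had 0.08 and 0.09, and the inner arm heavy chains Dnah1 and Dnah2 had −0.03 and 0.002. Dnali1, a light intermediate chain of inner arms, had 0.13. The assembly factors Zmynd10 and Lrrc6, which ready the arms in the cytoplasm, had 0.14 and −0.02.

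Radial spokes and the central pair set the beat, and the nexin link and the ruler proteins hold the dynein arms in place. Their 9 measured genes all had positive changes, none was called, and the lowest adjusted p was 0.334 by limma. Spag17, a protein of the central pair, read 6.23, 6.27, 6.31 and 6.33 in controls and 6.68, 6.33, 6.61 and 6.50 in mutants. Mutant 2 lay just above the highest control, and the other 3 mutants clear of them. The estimate was 0.25 ± 0.08 (SE, 95% interval 0.06 to 0.43). The exact permutation p of 0.0286, which ignores litters, is again that of every gene without overlap. The second probe set of Spag17 gave 0.04. In the alternatives the adjusted p of Spag17 ran from 0.0608 to 0.592.

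Rsph4a, a spoke head protein, read 5.0, 4.99, 5.03 and 5.06 in controls and 5.20, 5.25, 5.51 and 5.05 in mutants. Mutants 1 to 3 lay above all controls, and mutant 4 among them. The estimate was 0.23 ± 0.10 (SE; adjusted p = 0.467 by limma). The spoke proteins Rsph1 and Rsph9 had 0.11 and 0.14, and the central pair proteins Spag16, Spag6 and Hydin had 0.18, 0.12 and 0.04. Ccdc40, a ruler protein, and Drc1, of the nexin link, had 0.11 and 0.03. The second probe sets of Spag6 and Hydin gave 0.02 and −0.05. Mouse Spag6 has a close copy, and whether the probes separate them was not tested.

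The promoters of the genes whose groups did not overlap are printed as the 250 bases before the RefSeq start (GRCm38.p6, 5′ to 3′ along the gene), with the half-site and its reverse complement, and the forkhead core, in capitals where present. For Deup1 the table has a pair of starts, and the window with the half-site is shown.
Deup1, chr9:15627847-15628096, minus strand: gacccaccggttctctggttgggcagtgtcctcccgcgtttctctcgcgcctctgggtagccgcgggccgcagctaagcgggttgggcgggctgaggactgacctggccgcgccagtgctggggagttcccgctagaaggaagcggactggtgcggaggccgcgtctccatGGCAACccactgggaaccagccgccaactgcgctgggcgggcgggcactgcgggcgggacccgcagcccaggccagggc
Spag17, chr3:99885167-99885416, plus strand: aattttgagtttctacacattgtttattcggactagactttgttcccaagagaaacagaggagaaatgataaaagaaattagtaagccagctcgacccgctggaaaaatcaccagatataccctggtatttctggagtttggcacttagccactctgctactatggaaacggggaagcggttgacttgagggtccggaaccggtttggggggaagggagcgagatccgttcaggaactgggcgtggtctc
Myb, chr10:21160985-21161234, minus strand: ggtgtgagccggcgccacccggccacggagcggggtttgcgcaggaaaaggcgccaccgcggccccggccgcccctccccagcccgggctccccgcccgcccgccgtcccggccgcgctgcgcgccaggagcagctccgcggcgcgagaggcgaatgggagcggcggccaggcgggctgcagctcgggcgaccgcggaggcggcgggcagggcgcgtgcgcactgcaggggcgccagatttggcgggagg
GC content was 72% for Deup1, 47.6% for Spag17 and 81.2% for Myb, and the ratio of observed to expected CpG was 0.75, 0.73 and 0.97. Of the 3, only the Deup1 stretch held the half-site, with its first base 79 bases before the start, and none held the forkhead core. The MYB core was not marked.

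The 17 other axonemal and ciliary genes had changes on both sides of 0, from −0.25 to 0.15, and none was called. The largest positive change was that of Tekt4, a tektin that lines the doublet microtubules, with 0.15, and Tekt1 and Tekt2 had −0.002 and −0.10. Genes of the Cfap family, structural proteins of cilia and flagella, had 0.03 (Cfap43), 0.08 (Cfap44), 0.04 (Cfap52) and 0.04 (Cfap53). Ccdc113, Fank1, Ak7, an adenylate kinase, and Enkur had 0.05, −0.02, 0.02 and 0.01. Ift172, a carrier of intraflagellar transport that all ciliated cells need, had 0.01.

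The lowest means of the 45 were those of Sntn, Pifo and Enkur, and the groups of each overlapped. Sntn, found at the ciliary tip, read 5.09, 4.81, 4.80 and 4.76 in controls and 4.78, 4.75, 4.90 and 4.77 in mutants. Control 1 was highest, and the log2 change was −0.07 ± 0.08 (SE). Pifo, a protein of the ciliary base, read 5.14, 4.96, 4.80 and 4.90 in controls and 4.94, 4.83, 5.47 and 5.08 in mutants. Mutant 3 alone lay above the controls, and the log2 change was 0.13 ± 0.13 (SE). Enkur, an inner protein of the doublet, had the lowest mean of the 45 genes and read 4.33, 4.41, 4.33 and 4.30 in controls and 4.29, 4.32, 4.42 and 4.38 in mutants. Its groups spanned almost the same range.

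The brightest probe sets of the 45 were those of Tuba1a and Tppp3, genes that other cells use too, followed by Rfx3. Tppp3, which bundles microtubules in ciliated cells and is also made by connective tissue, read 10.05, 9.87, 10.25 and 10.06 in controls and 9.87, 9.83, 9.69 and 9.84 in mutants. The groups touched only at control 2 and mutant 1. The estimate was −0.25 ± 0.09 (SE; adjusted p = 0.346 by limma). With the Xist covariate it was −0.29 and passed at an adjusted p of 0.0307 by limma. In that fit 313 of all genes were called lower, against 55 in the main fit. Over the 23 alternatives the adjusted p of Tppp3 by limma reached 0.652. Tuba1a, an alpha tubulin abundant in neurons and dividing cells, read 10.89, 11.10, 11.15 and 10.99 in controls and 10.96, 10.97, 10.69 and 10.91 in mutants. The groups overlapped, with mutant 3 lowest, and the log2 change was −0.15 ± 0.09 (SE) with −0.08 for its second probe set. Tubb4b, a beta tubulin of axonemes, had −0.04. Both tubulins have close paralogues, and whether the probes separate them was not tested. Of 8 measured markers of neurons and neural crest, 1 was called lower, Ret, with a log2 change of −0.43, and the list had a median of 0.01 and mean log2 levels of 7.42 to 7.60 over controls and 7.53 to 7.55 over mutants. Of 11 mesenchyme markers none was called, their median was 0.09, and their mean levels were 11.10 to 11.19 in controls and 11.22 in each mutant. Their part in the values of Tppp3 and Tuba1a was not tested.

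Among the embryos, mutant 3 stood apart within the program. It held the highest of the 8 values for 25 of the 45 genes, or 55.6%, against 22.0% of all genes. The next was control 3, with 6 genes, and mutant 2 held none. By role, mutant 3 was highest for 3 of 7 regulators, both centriole genes, 6 of 10 dynein arm genes, 6 of 9 genes of spokes, central pair and dynein regulation, and 8 of 17 others. Its values lay above the mean of the other 3 mutants by a median of 0.13 over the 45 genes, and by 0.01 over all genes.

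Part of this went with the brightness of the probe sets. With all genes cut into 4 equal bins of 5545 by mean, the median difference between mutant 3 and the other mutants was 0.07 in the dimmest bin, then 0.09, −0.03 and −0.04. Members in the same bins had median differences of 0.13 (12 genes), 0.16 (25 genes), −0.06 (5 genes) and −0.15 (3 genes). Below the median of all genes, mutant 3 was highest for 23 of 37 members, or 62.2%, against 33.7% of all genes at that brightness. Above the median it was lowest for 4 of 8 members, Myb, Rfx2, Tppp3 and Tuba1a, against 29.2% of genes there. It was highest for 2 of these 8, Mcidas and Rfx3, against 10.3% of genes there. After another round of quantile normalization it was highest for 22 of 45 members and for 25.7% of all genes. Mutant 3 was also the only mutant with a low Xist value, whereas controls 1 and 2, with low values as well, were highest for 5 members and 1. Mutant 4, the littermate of mutant 3, was highest for 3 members. Its median difference from the control mean over the members was 0.04, against 0.13 in mutant 3. The sex and the array of mutant 3 cannot be told apart as sources of its values, and the part of its litter was not tested.

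**Figure D4:**
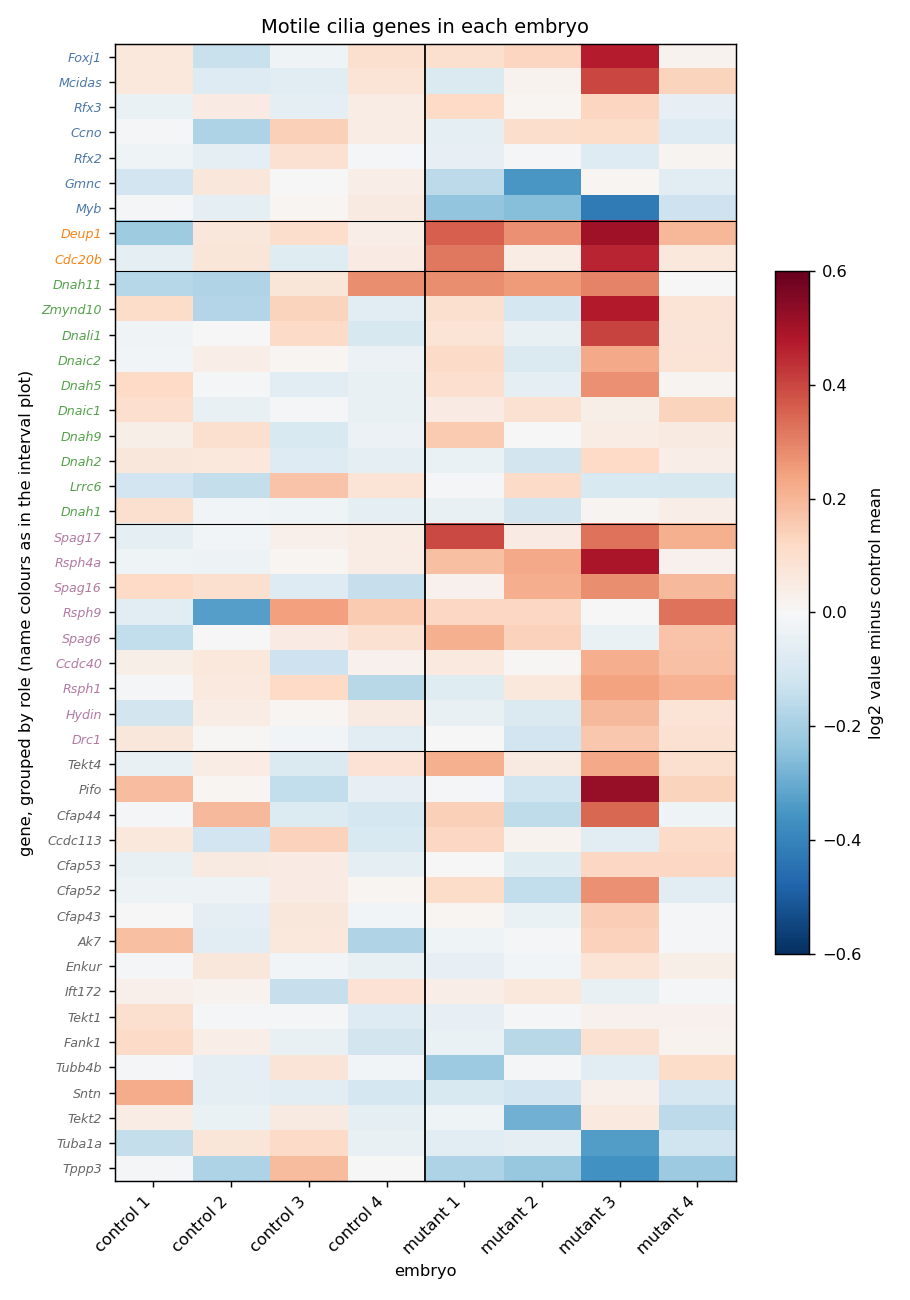
Log2 value minus the control mean for the 45 genes (rows, grouped by role) in the 8 embryos (columns); red is above and blue below the control mean, and the vertical line separates the genotypes. The column of mutant 3 holds the strongest reds, among them Pifo, Deup1, Rsph4a, Zmynd10 and Foxj1, and its strongest blues are Myb, Tppp3 and Tuba1a.

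**Figure D5:**
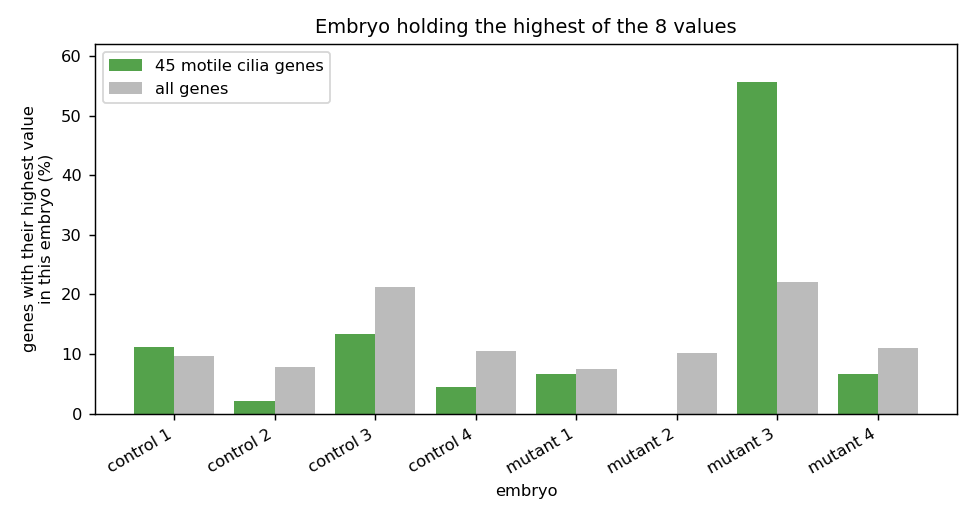
Share of genes (%) whose highest of 8 values fell in each embryo, for the 45 motile cilia genes (green) and all 22180 genes (grey). Mutant 3 held 55.6% of the motile cilia genes and 22.0% of all genes, and no other embryo held more than 13.3% of the motile cilia genes.

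Further genes of cilia formation, taken from 5 lists with 140 measured genes outside the 45, gave 1 called higher (0.604% of all genes were) and 1 called lower (0.248% of all genes), with a median change of −0.004. Both belong to the 22 measured genes upstream of multiciliated fate. Foxa1, a forkhead factor of lung epithelium, read 10.36, 10.35, 10.39 and 10.33 in controls and 9.73, 9.71, 9.88 and 9.87 in mutants. The groups were far apart, and the estimate was −0.56 ± 0.06 (SE; adjusted p = 0.00107 by limma). Jag2, a Notch ligand, read 7.96, 8.06, 8.12 and 8.24 in controls and 8.50, 8.55, 8.62 and 8.40 in mutants. Its groups did not overlap, and the estimate was 0.42 ± 0.08 (SE; adjusted p = 0.0336 by limma). Trp73, the p63 relative that multiciliated cells need, had 0.005 and Foxn4 0.11. The Mcidas partner E2f4 had −0.11 (groups not overlapping, adjusted p = 0.634 by limma) and the Mcidas inhibitor Gmnn −0.01. Groups also did not overlap for Notch2 (0.36, adjusted p = 0.0718 by limma) and Stat3 (0.14), higher in mutants. E2f5 (−0.13), Foxa2 (−0.20) and Grhl2 (−0.18) were lower without overlap. Of the genes without overlap in this list, only Foxa1 and Jag2 were called. With E2f4, Notch2, Stat3, E2f5, Foxa2 and Grhl2 they make up a larger share of the 22 than the 8.07% of all genes. This difference in share was not tested.

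Below the fate genes, no list held a called gene. The 52 measured further spoke, central pair and axonemal genes had 37 positive changes and a median of 0.06, from −0.33 (Efcab1) to 0.29 (Dynlrb2, a dynein light chain that was in both of these lists). The 19 further dynein arm genes had 12 positive changes and a median of 0.01, from −0.43 (Dnah7a) to 0.29 (Dynlrb2). Genes that primary cilia and ordinary centrioles also need leaned the other way. Of 30 genes of intraflagellar transport and the BBSome 7 were positive, with a median of −0.05 and a range of −0.22 (Ttc8) to 0.21 (Bbs7). Of 18 genes of centriole duplication and basal bodies 2 were positive, with a median of −0.05 and a range of −0.24 (Cep164) to 0.12 (Ccdc78). In mutant 3 the last 2 lists lay at −0.13 and −0.14 from the control mean, the lowest of the 8 embryos. Mutants 1, 2 and 4 had −0.01, 0.02 and −0.04 for transport, and −0.07, −0.01 and −0.07 for centrioles. Controls 1 to 4 had −0.06, −0.04, 0.06 and 0.04 for transport, and −0.05, −0.01, 0.002 and 0.06 for centrioles. For transport, mutants 1, 2 and 4 thus lay within the range of the controls. For centrioles only mutant 2 did. These 2 lists were also brighter, with mean levels over controls of 8.95 to 9.07 and 8.92 to 9.04. The further axonemal and dynein arm lists had 6.65 to 6.70 and 6.97 to 7.05. The part of brightness in the lean was not tested.

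Markers of the labelled tissue were bright. Nkx2-1, the regulator of lung fate, had mean log2 values of 10.79 in controls and 10.74 in mutants, and the surfactant gene Sftpc 12.85 and 12.93. Of 14 lung epithelium markers 0 were called, with mean levels of 10.39 to 10.64 over controls and 10.41 to 10.47 over mutants, and these ranges overlapped. The list was not flat within, and 9 of the 14 changes were negative. Cldn18 (−0.41), Etv5 (−0.33), Shh (−0.28) and Epcam (−0.26) were lower in every mutant than in every control, a pattern of 3.6% of all genes. Etv5 was nearest the threshold at an adjusted p of 0.0611 by limma. Krt19 went the other way at 0.50, with groups that overlapped. The part of these epithelial values in those of the 45 genes was not tested. Among the other marker lists, counts called were 1 of 9 for club and goblet cells (Cbr2, higher), 4 of 6 for oesophagus and stratified epithelium (Krt4, Krt15, Pax9 and Trp63, higher), 1 of 6 for mesothelium (Upk1b, higher) and 1 of 6 for smooth muscle (Cnn1, lower). They were 0 of 7 for neuroendocrine cells, 0 of 7 for endothelium and 0 of 5 for germline and testis, a tissue that shares many axonemal genes. The median array value was 7.05 to 7.12, and arrays correlated at 0.986 to 0.995.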

How the data were processed

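The authors deposited log2 values, 1 per probe set and array; RMA, oligo and limma are named in the submitters' processing notes, without versions. RMA corrects background, equalizes the arrays and summarizes probes. Of 23521 probe sets with 1 symbol, the one with the highest mean stood for its gene. All 22180 genes were fitted with limma 3.58.1 in R 4.3.3, with genotype as the factor and litter as a random block (consensus correlation 0.153), empirical Bayes moderation, two-sided tests and Benjamini-Hochberg adjustment. The fit was tested on simulated data. Embryos are separate animals, but no litter held both genotypes, so genotype was compared only between litters. The numbers of embryos and of litters limit the precision. Exact permutation tests ran over all divisions of the 8 embryos. Members, lists and the naming rule (all regulators, members called or without overlap, the 3 largest changes each way, the 3 highest and lowest means) were chosen with earlier results of these data known. Cdc20b, Dnah11 and the microRNA genes were named in addition, after their values were seen, as were the motifs and printed sequences. Alternatives changed the litter term, dim filter, scaling, probe set rule, variance model, array weights, Xist covariate, and embryos or litters included. Figures used Python 3.11.15 and matplotlib 3.10.9.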

Additional observations from a re-analysis of the deposited data

Results flagged for a closer look

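For each of the 45 genes and each genotype, the distance of the extreme embryo was tested, 90 tests in all. The test marked 4, and at the rate of 1 in 20 that chance gives, 4.5 would be. Mutant 3 was highest of the mutants for Sntn (log2 value 4.90) and for Ak7 (6.52). Control 1 was highest of the controls for Sntn (5.09), and mutant 4 was lowest of the mutants for Dnah11 (7.15).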

How the results depend on the processing

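Of 23 alternative fits, 22 called 0 of the members in either direction, as did an adjusted p of 0.10 in the fit reported. With the Xist level as a covariate 0 were higher and 2 were lower, Myb and Tppp3. That fit called more genes throughout, 361 of 22180 higher and 313 lower, against 134 and 55 in the fit reported. The cause was not tested. The median log2 change of all members was 0.05 and ran from 0.02 (without mutant 3) to 0.08 (without mutant 2) with 1 embryo left out. Without litter 4 it was −0.0047, and the cause was not tested. Of the 45 members, 21 kept their sign in all fits they entered. The count highest in mutant 3 was 25, and 20 to 24 under the other scalings and probe set rule. The filter on dim genes left 34 members. With the replicate number as a block the counts were 0 and 0 and the median 0.05; numbers were taken as not pairing embryos, since same-numbered deviations correlated at −0.23, −0.05, −0.27 and 0.03. Fits without a litter had no block. Dim probe sets limit what can be seen.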
